A study of Mus musculus with 2 samples.

Results

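Tendons and ligaments of the mouse knee were examined at the single-cell level through 365 cells of 6243 in 2 droplet libraries. These cells were chosen by their values for 6 marker genes, with a value above 0 for at least 3 of them required, namely Tnmd, Kera, Angptl7, Thbs4, Cilp and Cpxm2, and carried no mark in the authors' cell selection column, which marks chondrocytes. Every marked cell had Sox9 and Col2a1 above 0 and none had a globin value, so that control cells with both cartilage genes and a globin value carry no mark and could be chosen. The chosen cells are called marker-positive here, and numbered 314 of 4903 control and 51 of 1340 mutant cells. Since the values of the 6 genes chose the cells, those values are a description and support nothing on their own.

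Both libraries were made from knee joints of female C57BL/6 mice aged 1 month, with live cells negative for CD31, Ter119 and CD45 sorted from 2 to 3 pooled mice of each genotype. Control mice were Stat3fl/fl, with both Stat3 copies flanked by loxP sites and no Cre. Mutant mice are labelled Acan-Cre+/Cre;Stat3fl/fl, and the study's methods describe a single Acan-CreERT2 allele, a tamoxifen-dependent Cre driven from the aggrecan locus, induced in the first days after birth to delete Stat3 in chondrocytes. The driver is thus one of cartilage, and how far it recombined Stat3 in tendon or ligament cells was not measured. With 1 pool per genotype there is no replicate, so no test was made and every difference below is one between these 2 libraries, with intervals that cover counting error only.

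Tendon and ligament fibroblasts, or tenocytes, lay down parallel fibrils of type I collagen whose growth is governed by small leucine-rich proteoglycans and by thrombospondins. The transcription factors Scx and Mkx drive this programme, and the membrane protein tenomodulin, encoded by Tnmd, is its usual late marker. STAT3 is the transcription factor that relays signals of the gp130 cytokine receptors, and it was the gene targeted in the mutant mice.

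The control library carried red cell RNA. A globin value was present in 75.7% of its cells and in 8.43% of the mutant cells, and in 203 of 314 (64.6%) control against 1 of 51 (1.96%) mutant marker-positive cells. Marker-positive cells had a median of 3877 estimated UMIs (unique molecular identifiers, the molecules counted) and 1672 genes if control and of 6411 and 2148 if mutant. More than 5% mitochondrial counts were found in 10.5% and 29.4% of them, respectively. The libraries shared 2 cell barcodes, none of them in a marker-positive cell.

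The 6 marker genes lie on 6 chromosomes, in GRCm38 coordinates with the gene models of Gencode M21. Tnmd spans 133850980 to 133865577 on the plus strand of chromosome X, and Kera, encoding the corneal and tendon proteoglycan keratocan, 97606879 to 97613692 on the plus strand of chromosome 10. Angptl7, encoding a secreted angiopoietin-like protein, lies at 148495183 to 148500460 on the minus strand of chromosome 4. Thbs4, which encodes the tendon thrombospondin that helps to order collagen fibrils, spans 92751590 to 92794818 on the minus strand of chromosome 13. Cilp, encoding a matrix protein that binds TGF-beta, lies at 65265180 to 65280605 on the plus strand of chromosome 9, and Cpxm2, encoding a carboxypeptidase-like protein, at 132032687 to 132154739 on the minus strand of chromosome 7.

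Since the tendon factor Scx belongs to the basic helix-loop-helix proteins, which bind E-boxes, the 250 bases before each RefSeq start were searched for the E-box CANNTG, which reads the same on both strands. Of 32851 promoters of that length 66.2% held it, and among the 6 genes Angptl7 and Cilp held 3 matches each, Thbs4 and Cpxm2 held 1 each and Tnmd and Kera none. Matches are a description and not sites. The upstream sequences of Tnmd and Angptl7 are shown because they hold the fewest and the most matches and because the genes differed in opposite directions between the libraries, Tnmd with 2226 CPM in control and 959.9 CPM in mutant cells and Angptl7 with 557 and 1043 CPM, where CPM is the count scaled to a cell total of 1000000. The RefSeq start of Tnmd lies within the Gencode gene model. They are written 5′ to 3′ on the strand of the gene, from RefSeq on GRCm38.p6, at chrX:133850758-133851007 (plus strand) and chr4:148500463-148500712 (minus strand), with E-box matches in capitals.
Tnmd: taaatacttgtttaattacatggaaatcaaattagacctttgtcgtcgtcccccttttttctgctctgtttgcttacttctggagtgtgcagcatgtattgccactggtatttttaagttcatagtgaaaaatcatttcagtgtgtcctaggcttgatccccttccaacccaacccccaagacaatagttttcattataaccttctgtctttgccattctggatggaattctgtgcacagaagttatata
Angptl7: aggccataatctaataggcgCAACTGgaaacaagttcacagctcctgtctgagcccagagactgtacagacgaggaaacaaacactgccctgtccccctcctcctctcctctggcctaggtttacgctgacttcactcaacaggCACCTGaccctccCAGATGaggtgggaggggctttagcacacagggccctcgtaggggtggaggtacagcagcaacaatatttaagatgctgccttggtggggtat

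Among the marker-positive cells of the control library, 98 (31.2%) had exactly 3 of the 6 genes above 0, 116 (36.9%) had 4, 83 (26.4%) had 5 and 17 (5.41%) had all 6. In the mutant library 33 (64.7%) had 3, 13 (25.5%) had 4, 5 (9.80%) had 5 and none had 6. Mutant cells therefore sat closer to the edge of the rule although they were more deeply sequenced. Just outside it, 165 control and 52 mutant cells without a mark had 2 of the 6 genes, and 10 control and 9 mutant cells met the gene count but carried the authors' mark.

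Thbs4 was the marker found in most cells. It was found in 302 of the 314 control and 47 of the 51 mutant cells, with a median over the cells above 0 of 11.48 and 10.36 on the deposited log2(CPM + 1) scale of single cells. Tnmd was above 0 in 266 control (84.7%) and 31 mutant cells (60.8%), where the lowest, median and highest values above 0 were 7.20, 11.06 and 13.51 for control and 7.21, 9.70 and 11.94 for mutant cells. Kera was above 0 in 169 (53.8%) and 14 cells (27.5%), with medians of 9.62 and 8.52, and Cpxm2 in 231 (73.6%) and 27 cells (52.9%), with medians of 9.28 and 8.70. The other markers did not share this order. Angptl7 was above 0 in 121 control (38.5%) and 22 mutant cells (43.1%), with medians of 9.93 and 10.62, and Cilp in 186 (59.2%) and 35 cells (68.6%), with medians of 10.10 and 10.15. The ranges of the cells overlapped between the libraries for every marker.

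**Figure D1:**
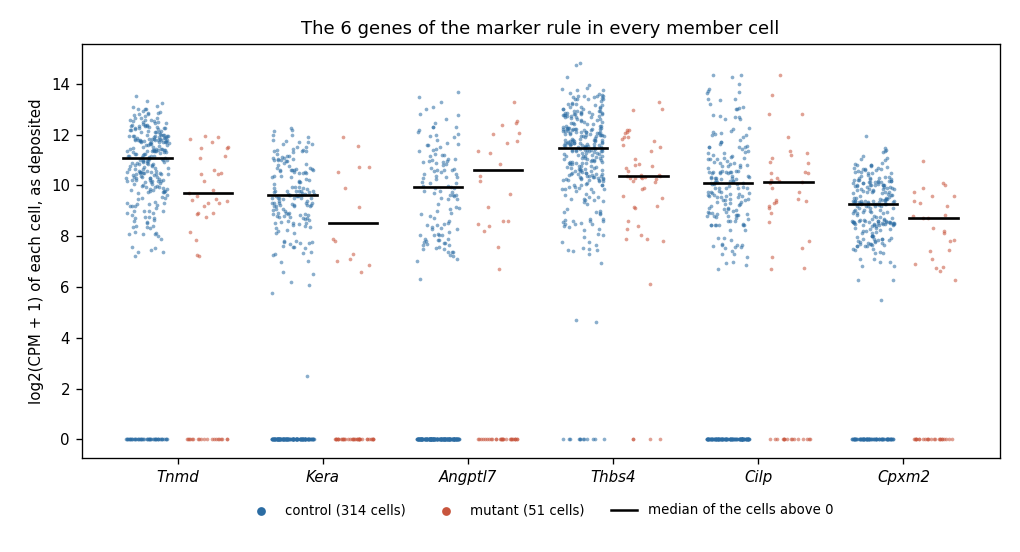
Value of each of the 6 marker genes (x axis) in every marker-positive cell, as deposited log2(CPM + 1) (y axis), for 314 control (blue) and 51 mutant cells (red); bars are medians over the cells above 0 and cells without the gene lie at 0. Tnmd, Kera, Thbs4 and Cpxm2 medians are lower in the mutant library, and those of Angptl7 and Cilp are not. The scale depends on the depth of each cell, and in UMIs the Kera and Cpxm2 medians are alike.

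At a common depth of 1000 UMIs per cell, which 3 control and 1 mutant marker-positive cells did not reach, Tnmd remained above 0 in 70.4% and 40% and Kera in 32.8% and 14.0%. Background was low. In control cells with all 5 erythroid genes above 0, which should lack these genes, Tnmd was above 0 in 27 of 764 cells (3.53%) and Thbs4 in 2 (0.262%), at a median of 5581 UMIs. In the chondrocytes marked by the authors Tnmd was found in 27 of 501 cells of the control (5.39%) and 12 of 332 of the mutant library (3.61%).

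The combination of markers was not uniform. Tnmd and Kera were found together in 165 control cells, 52.5% (46.9 to 58.2%, exact Clopper-Pearson 95% interval), and in 13 mutant cells, 25.5% (14.3 to 39.6%). Neither gene was above 0 in 44 control cells, 14.0% (10.4 to 18.4%), and 19 mutant cells, 37.3% (24.1 to 51.9%). Kera without Tnmd was rare, with 4 control cells and 1 mutant cell. Tnmd and Thbs4 formed the pair most often seen in control cells, in 257 of 314 (81.8%), and Thbs4 and Cilp in mutant cells, in 31 of 51 (60.8%).

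The label of tendon and ligament cells was compared with the place of the cells among 21 clusters formed from all 6243 cells and all variable genes. In the control library 263 of 314 cells, 83.8% (79.2 to 87.7%), lay in 2 clusters in which more than 50% of the cells of each library were marker-positive. Since these clusters were picked by their share of marker-positive cells, such shares are a description and do not check the label. The first, led by Angptl7, Kera, Fgf9, Cpxm2 and Tnmd, held 210 control and 15 mutant marker-positive cells. The second, led by Chodl, Ptx4, Prph and Mstn and with Scx among its 10 leading genes, held 53 and 4. Of 10 further tendon genes, which the rule did not use, 9 and 7, respectively, were above 0 in at least 10% of their cells and 2-fold above other cells. Of the 6 marker genes 6 and 5 were so, which the picking of the clusters favours and which does not check the label. Genes of chondrocytes, osteoblasts, red cells, leukocytes, endothelium, muscle and Schwann cells did not stand out in either. In the first, 2 of 7 synovial lining, 1 of 6 universal fibroblast, 1 of 5 mural and 1 of 4 marrow stromal genes did so, and in the second none of these. Both clusters are called tendon-like.

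In the mutant library 19 of 51 marker-positive cells, 37.3% (24.1 to 51.9%), lay in the tendon-like clusters. Another 15 lay in a cluster led by Pi16, Cd34, Col6a6 and Dpp4, genes of the widespread universal-type fibroblast, where 6 of 6 universal fibroblast markers stood out but 1 of 6 markers of the rule. Of the 10 further tendon genes 4 stood out there, as did 2 of 7 synovial lining, 1 of 5 endothelial and 1 of 4 marrow stromal genes. A further 13 lay in a cluster led by Wnt16, Crabp2, Sfrp2 and Tnn. In it 3 of the 6 markers, 1 of 6 osteoblast genes and 7 of the 10 further tendon genes stood out, the last as many as in the second tendon-like cluster. But 13.3% of its control and 28.9% of its mutant cells were marker-positive, and it is left without a name. The naming rests on that share, so the count of 19 depends on it. Of its 13 mutant marker-positive cells 12 had Tnmd, 8 Scx and 4 Angptl7 above 0, and of the 15 in the first tendon-like cluster 9, 10 and 8. The Pi16 and Wnt16 clusters held 17 (5.41%) and 13 (4.14%) of the control marker-positive cells. With coarser and finer clustering (resolution 0.5 and 2) the tendon-like clusters held 260 and 259 control and 19 and 13 mutant marker-positive cells.

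**Figure D2:**
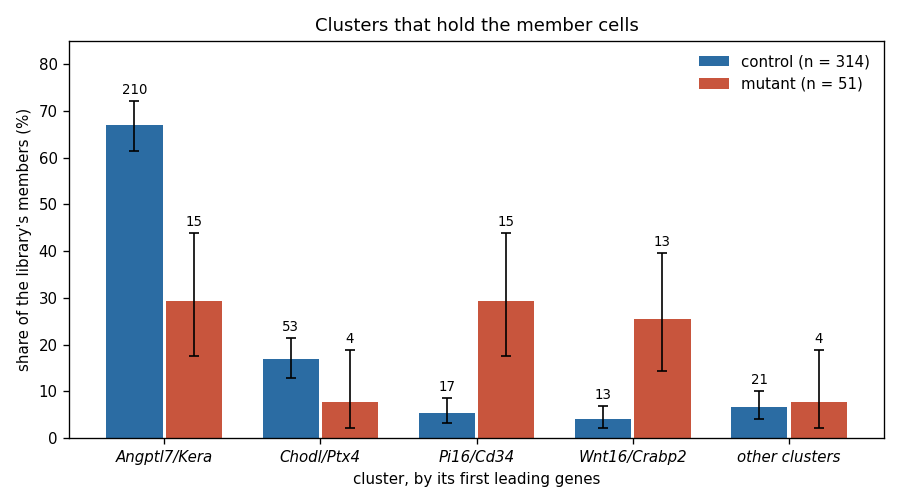
Share of each library's marker-positive cells (y axis, %) in the 4 clusters that hold most of them and in all other clusters (x axis, by first leading genes); bars start at 0, error bars are exact 95% binomial intervals and numbers are cells. The first and second clusters are tendon-like and hold 263 of 314 control but 19 of 51 mutant cells.

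Because different clusters held most of the cells in each library, values are given below for all marker-positive cells (314 and 51) and for those in the tendon-like clusters (263 and 19). The cells outside differed in level as well. Tnmd stood at 2701 CPM of the summed control cells inside the tendon-like clusters and at 675 CPM outside them, and in the mutant library at 1454 and 524 CPM. Fmod, encoding fibromodulin, a proteoglycan of tendon that the rule did not use, had a median per cell of 12.32 inside and 10.67 outside on the log2 scale among control and of 11.30 and 9.17 among mutant cells. The clusters were formed with these genes, so the contrast inside against outside is a description.

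At the edge of the rule, control cells with exactly 3 markers held 21795 CPM of Col1a1 and 130.0 CPM of Scx, and those with 2 held 15888 and 32.1 CPM. In the mutant library the values were 7850 and 210.0 CPM with 3 markers and 9050.3 and 94.6 CPM with 2. Of the cells with 3 markers 67.3% of the control and 27.3% of the mutant lay in the tendon-like clusters, and of those with 2 markers 12.7% and 3.85%.

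Defining genes of other cell types were low. Leukocyte genes summed to 5.67 CPM in control and 3.0 CPM in mutant marker-positive cells, with Ptprc, Cd74, S100a8 and S100a9 at 0 in both. Endothelial genes summed to 24.7 and 17.9 CPM, muscle genes to 10.7 and 5.97 CPM and Schwann cell genes to 30.9 and 60.3 CPM, with Myod1 and Sox10 at 0 in both libraries. The osteoblast list came to 153 and 139 CPM with Sp7, the osteoblast factor, at 0, and the mural list to 159.7 and 90.1 CPM, most of it Acta2. Chondrocyte genes were present at a low level. Col2a1, the collagen of cartilage, stood at 604 and 101 CPM as compared to 44125 and 31546 CPM in the marked chondrocytes, and 3 cells held 75.4% and 71.1% of its UMIs. Since marked cells all had Col2a1 and could not be chosen, the choice of cells favours this contrast.

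Genes of the synovial lining were more abundant. Prg4, encoding the lubricant lubricin, reached 4039 and 4229 CPM over all marker-positive cells with 64.6% and 54.9% of them above 0, but 1538 and 2041 CPM within the tendon-like clusters. Of its UMIs 3 cells held 52.5% and 79.5%. Erythroid genes summed to 858 CPM in control but 1.61 CPM in mutant cells. Their part in the results below was not tested, and the list medians and calls that differ without globin-positive cells are given with the ratios of mutant over control.

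Beyond the 6 markers, matrix genes were high in the marker-positive cells of both libraries. All comparisons here are of summed cells within a library, and a gene is called when its level is at least 2-fold higher in marker-positive cells than in all other cells in both libraries. The filter required detection in 10% of the marker-positive cells of either library and a mean of 100 CPM in them. Of 1459 genes that passed, 127 (8.7%) were called, and 17 genes (1.17%) were at least 2-fold lower in both. Genes low in marker-positive cells could not pass, so the filter favours higher over lower calls, here and in the comparisons with other cell classes below. The 127 include the 6 markers, whose call the choice of cells favours. With the markers left out of each list, 7 of 10 leucine-rich proteoglycans that passed the filter were called higher, as were 7 of 18 matrix glycoproteins, 4 of 14 fibril and associated collagens and 4 of 9 further tendon markers. All 4 fibrocartilage genes that passed, Col2a1, Acan, Hapln1 and Col11a2, were called lower. Marked chondrocytes could not be chosen and count among the other cells, so the choice of cells favours these lower calls.

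The 20 genes with the highest such ratios outside the rule began with Chodl, encoding chondrolectin, and Scx. Scx stood at 164 CPM in control and 241 CPM in mutant marker-positive cells, and at 4.88 and 14.5 CPM in all other cells, log2 ratios of 4.82 and 3.96. Chodl stood at 113 and 174 CPM against 2.13 and 2.38 CPM, but only in 14.97% and 11.8% of the cells, and 3 cells held 91.2% of its mutant UMIs. Mfap4, a microfibril protein of elastic fibres, Cilp2, the paralogue of Cilp, and Abi3bp, a matrix protein, followed with smaller-of-2 log2 ratios of 3.95, 3.60 and 3.09. Dcn, encoding decorin, which sets the width of collagen fibrils, reached 10439 and 15081 CPM as compared to 885 and 2913 CPM in all other cells.

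The contrast depended on the cells compared. Against unmarked cells with Pi16 and Dpp4 above 0 (45 control and 15 mutant cells), which are genes of universal-type fibroblasts, 112 of 1459 genes (7.68%) were at least 2-fold higher in both libraries and 61 (4.18%) lower, with 7 of 14 collagens and, leaving out Kera, 5 of 10 leucine-rich proteoglycans higher. Marker-positive cells were left out of this class, which favours low values of the marker genes in it. Scx, Kera, Cpxm2 and Chodl were at 0 in the Pi16+Dpp4+ cells of both libraries, while Igfbp6, Fndc1, Angptl1 and Dcn were high in them too. Igfbp6, encoding an IGF-binding protein, stood at 3297 CPM in control Pi16+Dpp4+ cells, above the 1491 CPM of control marker-positive cells, and in the mutant library the order was turned, 2336 against 3843 CPM. Fndc1 was higher in Pi16+Dpp4+ cells of both libraries, 895 against 568 CPM and 818 against 443 CPM. At these cell numbers a gene at 0 could still reach 18.4 CPM in control and 27.0 CPM in mutant Pi16+Dpp4+ cells, the level of 3 UMIs.

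Prg4 lining cells were unmarked cells with Prg4 and at least 2 of 7 other lining genes above 0, neither marker-positive nor Pi16+Dpp4+ (329 and 106 cells). Against them, 84 of 1459 genes (5.76%) were at least 2-fold higher in marker-positive cells of both libraries and 34 (2.33%) lower. Among the leucine-rich proteoglycans other than Kera 8 of 10 were called higher, and 7 of 9 further tendon markers. Ccdc3 was shared with the lining, at 276 and 272 CPM in marker-positive and 296 and 252 CPM in lining cells. Against the marked chondrocytes 203 genes (13.9%) were higher and 41 (2.81%) lower, with 9 of 14 collagens and 11 of 18 glycoproteins outside the rule higher. Fibin, also among the 20, stood at 711 and 707 CPM in marker-positive cells and at 341 and 299 CPM in the marked chondrocytes.

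**Figure D3:**
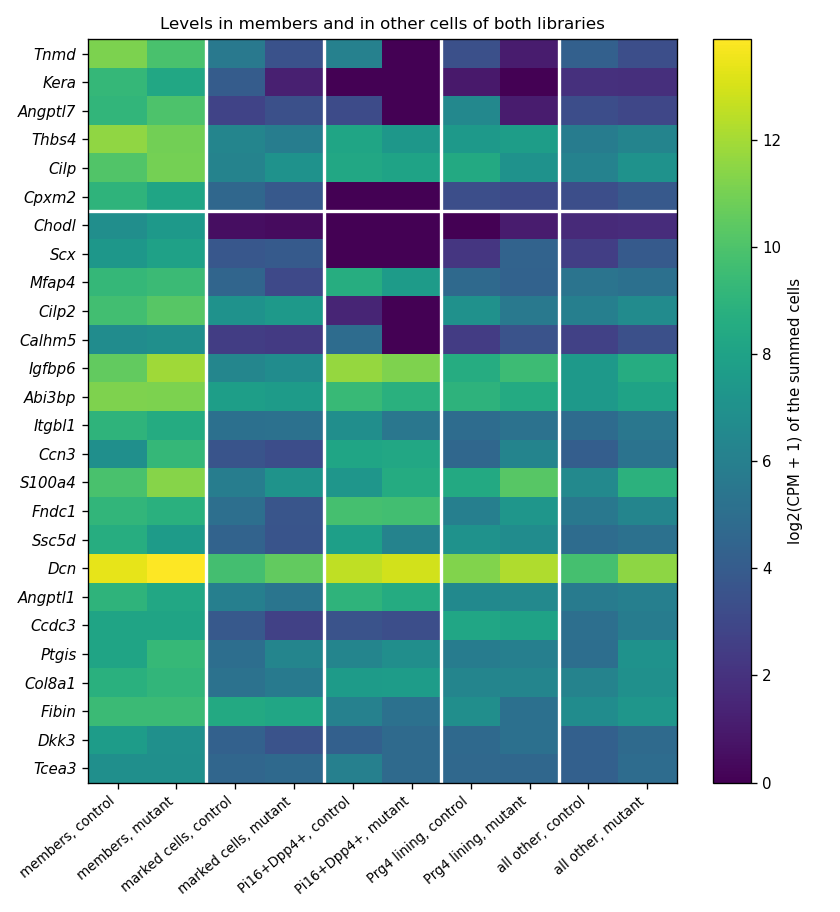
Level as log2(CPM + 1) of the summed cells (colour) of the 6 marker genes (above the white line) and the 20 genes outside the rule with the highest ratio over all other cells (below it), in 5 cell classes of each library (columns). Scx and Chodl are higher in the marker-positive columns ("members") than in the other columns of the same library, whereas Igfbp6, Fndc1 and Dcn are also high in Pi16+Dpp4+ cells.

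The share of marker-positive cells was lower in the mutant library, 3.81% (2.85 to 4.97%) of 1340 cells as compared to 6.40% (5.73 to 7.13%) of 4903 control cells. Marked cells, 332 mutant and 501 control, could not be chosen but count in these totals. Of cells without a mark the shares were 5.06% (3.79 to 6.60%) of 1008 mutant and 7.13% (6.39 to 7.93%) of 4402 control cells, with overlapping intervals. Among cells without a globin value the shares were 4.07% (3.04 to 5.34%) and 9.33% (7.74 to 11.1%). Counting only those in the tendon-like clusters, they were 1.42% (0.856 to 2.21%) and 5.36% (4.75 to 6.03%). In cells thinned to 1000 UMIs (1134 and 4551 cells reached that depth) they were 1.85% (1.15 to 2.82%) and 4.24% (3.67 to 4.87%). A share of sorted and pooled cells also depends on dissection, and that part cannot be told apart from genotype with 1 pool each.

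Stat3 was found in a like share of the cells, though mutant cells were more deeply sequenced and no thinned share is given. Its level was below the mean of 100 CPM that the filter required. Of the 314 control cells 91 (29.0%) and of the 51 mutant cells 14 (27.5%) had a value above 0, with 137 and 23.9 estimated UMIs, or 99.98 and 73.2 CPM, a log2 ratio of mutant over control of -0.45. In the 216 control and 18 mutant cells with at least 4 markers the ratio was -1.32, with cells of 2 markers added it was 0.023, and with marked cells included 0.11, so that the direction depended on which cells were counted. In the marked chondrocytes the levels were 142 and 103 CPM, with the same ratio of -0.45. Which exons lie between the loxP sites is not given in the sources used here, and 3′ reads need not fall in them, so these values do not check the deletion.

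In all, 134 of 1459 genes (9.18%) were at least 2-fold higher and 84 (5.76%) at least 2-fold lower in mutant than in control marker-positive cells, with a median log2 ratio over all genes that passed of 0.04. Within the tendon-like clusters the counts were 158 (11.1%) and 119 (8.34%) of 1427. Of the genes called higher over all cells 94, 70.1%, were also called there, or 59.5% of those called there, and of the genes called lower 55, 65.5% and 46.2%. Of the listed genes described next the filter passed 14 of 17 collagens, 14 of 22 collagen processing genes, 11 of 14 leucine-rich proteoglycans, 20 of 24 glycoproteins, 4 of 10 tendon transcription factors, 10 of 29 FGF, IGF and Wnt genes and 13 of 31 TGF-beta and BMP genes. It passed 10 of 18 proteases and inhibitors, 8 of 19 mechanical response genes, 6 of 14 sheath and progenitor genes, 3 of 20 gp130 pathway genes and 17 of 19 stress genes. List counts within the tendon-like clusters are over these same genes. Of all 1459 genes that passed over all cells, 145 were at least 2-fold higher and 144 lower within those clusters.

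Some of these ratios differed without the globin-positive cells. Of 152 single genes 4 then fell below the 2-fold call, Hspa1b at -0.58, Igfbp5 at -0.99, Thbs1 at -0.91 and Tppp3 at 0.93, and the sign of Col2a1 turned. Past the call came 10 genes, among them the markers Angptl7, Cilp, Cpxm2 and Kera at 1.14, 1.24, -1.10 and -1.10 and the matrix genes Col6a3, Plod1, Fbln1 and Pcolce2 at -1.14, -1.06, 1.03 and 1.02. The median of the TGF-beta and BMP genes turned from 0.10 to -0.16, that of the genes often listed as STAT3 targets came to 0.08 from 0.41, that of the collagens to -0.70 from -0.49 and that of the further tendon markers to -0.81 from -0.57.

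Type I collagen was lower in the mutant cells. Col1a1, encoding the alpha 1 chain of the main fibril collagen, stood at 44090.3 CPM in control and 18164 CPM in mutant marker-positive cells, a log2 ratio of -1.28, and Col1a2, the alpha 2 chain, at 41288 and 14733 CPM, -1.49. For Col1a1 the median control cell held 14.96 and the median mutant cell 12.61 on the log2 scale. The central 50% of cells lay between 13.97 and 15.84 and between 11.01 and 14.24, so these ranges overlapped from 13.97 to 14.24. Within the tendon-like clusters the medians were 15.01 and 14.13. There the central 50% lay between 14.10 and 15.94 and between 13.05 and 14.53. The ratios of Col1a1 and Col1a2 in those clusters were -1.04 and -1.18, and without globin-positive cells -1.50 and -1.76. With at least 4 markers per cell they were -0.74 and -0.99, and among Tnmd-positive cells -0.86 and -1.13, so that Col1a1 was below the 2-fold call in both of these settings. In the marked chondrocytes both chains were higher in the mutant library, at 2657 and 4357 CPM for Col1a1, a log2 ratio of 0.71, and in Prg4 lining cells the ratio was -0.39.

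The other collagens varied. Of 14 fibril and associated collagens that passed the filter, 3 were called lower and none higher, with 11 below a ratio of 0 and a median log2 ratio of -0.49. Col11a1, a collagen that starts fibrils, was the third called, at 2062 and 706 CPM (-1.54). Col3a1, encoding the collagen of thin fibrils, stood at 7345 and 7529 CPM, and Col5a2 at 1674 and 1568 CPM. Col12a1, which lies on the fibril surface, had a ratio of -0.57 over all cells and of -1.80 in the tendon-like clusters. In those clusters 4 of the 14 collagens were lower and none higher, with a median of -0.48.

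Enzymes that modify collagen went the same way for some members. Of 14 collagen processing genes 3 were called lower and none higher (median -0.43), namely P4ha1, a prolyl hydroxylase subunit, at 677 and 253 CPM (-1.42), Plod2, a lysyl hydroxylase, at 1006 and 398 CPM (-1.34), and Loxl2, a lysyl oxidase, at 626 and 277 CPM (-1.17). Within the tendon-like clusters P4ha1 and Plod2 kept ratios of -1.20 and -1.04 and Loxl2 had -0.73, with 3 of the 14 genes lower, 1 higher and a median of -0.61. Serpinh1, the collagen chaperone HSP47, was not lower, at 1033 and 1303 CPM.

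Among the leucine-rich proteoglycans 1 of 11 was called higher, none lower, and the median log2 ratio was -0.35, or -0.13 without Kera. Within the tendon-like clusters none was higher and 2 were lower, with a median of -0.16. Dcn stood at 10439 and 15081 CPM (0.53), Fmod at 5023 and 2776 CPM (-0.86) and Kera at 612 and 318 CPM (-0.94). The gene called higher was Omd, encoding osteomodulin, at 52.4 and 249 CPM (2.23), and its ratio was 0.16 within the tendon-like clusters. The proteoglycans thus did not share 1 direction.

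Of 20 matrix glycoproteins, Thbs4 and Cilp of the rule among them, 2 were called higher and 6 lower, with a median of 0.04. Of the 18 outside the rule the same numbers were called, and within the tendon-like clusters 1 was higher and 3 were lower, with a median of 0.21. Those lower were Tnc, the tenascin of loaded tendon, at 312 and 117 CPM (-1.40), Fbn1, encoding fibrillin, at 682 and 269 CPM (-1.34), Thbs1 (-1.21), Postn (-1.13), Thbs2 (-1.09) and Matn2 (-1.05). In the tendon-like clusters the ratios of Tnc, Thbs1 and Thbs2 were -1.11, -1.97 and -1.60, and those of Fbn1, Postn and Matn2 were -0.84, -0.41 and -0.86. Eln, encoding elastin, at 48.8 and 168 CPM (1.76), and Mfap5, a microfibril protein, at 126 and 329 CPM (1.38), were higher. Comp, a further tendon glycoprotein, stood at 3103 and 3145 CPM.

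The markers of the rule, given as a description, divided in the same way. Tnmd stood at 2226 CPM in the summed control and 959.9 CPM in the summed mutant cells (-1.21), Kera had -0.94, Cpxm2 -0.83 and Thbs4 -0.68. Angptl7 stood at 557 and 1043 CPM (0.90) and Cilp at 1102 and 2005 CPM (0.86). A few cells carried these: 3 cells held 52.5% of the Angptl7 and 65.9% of the Cilp UMIs of the mutant library, against 12.7% and 12.6% in the control. In the tendon-like clusters the ratio of Tnmd was -0.89, of Angptl7 1.27 and of Cilp 1.46. There 3 of the 19 mutant cells held 72.2% of the Angptl7 and 79.4% of the Cilp UMIs. Kera stood at 766 and 593 CPM, Cpxm2 at 586 and 254 CPM and Thbs4 at 3630 and 1910 CPM in those clusters.

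None of the tendon transcription factors was called. Scx had a log2 ratio of 0.55, with 118 of 314 control (37.6%) and 27 of 51 mutant cells (52.9%) above 0, or 17.04% and 28.0% after thinning. Mkx stood at 95.1 and 61.1 CPM, on 130.3 and 19.96 UMIs, below the level minimum. The 4 tendon factors that passed the filter had a median ratio of 0.19. Of the 9 further tendon markers that passed, 3 were called lower, the type I collagen genes and Tnc, and none higher, with a median of -0.57. In the tendon-like clusters 4 of these 9 were lower and none higher, with a median of -0.55.

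Growth factor genes differed between all marker-positive cells and the tendon-like clusters. Of 10 FGF, IGF and Wnt genes that passed the filter 4 were called higher and 1 lower. Igfbp6 at 1491 and 3843 CPM (1.37) and Igfbp7, another IGF-binding protein, at 1644 and 3741 CPM (1.19) were higher over all cells, with 1.51 and 1.44 in the tendon-like clusters. Igf2, a fetal growth factor, stood at 104 and 414 CPM (1.98) over all cells and at 26.8 and 6.36 CPM within those clusters. Sfrp4, a Wnt antagonist, stood at 29.8 and 171 CPM (2.48), yet at 14.4 CPM in control and 0 in mutant cells of the clusters, where 3 UMIs would be 19.6 CPM in the mutant. Igfbp5 was lower, at 2882 and 1430.2 CPM (-1.01). Of 13 TGF-beta and BMP genes 2 were called higher, Ltbp2, a binding protein of the microfibril, at 28.7 and 174 CPM (2.56) and Id3, a target of BMP signals, at 164 and 549 CPM (1.74), and none lower, with a median of 0.10. Within the clusters the ratios of these genes were 2.87 and 0.32, and of the 13 genes 1 was higher and 2 were lower, with a median of -0.22. Of the 10 FGF, IGF and Wnt genes 2 were higher and 2 lower there, and the median of -0.04 over all cells became -0.61.

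Proteases and their inhibitors were called in both directions. Of 10 that passed the filter Timp1 and Timp3 were called higher and Mmp14, a collagenase of the cell membrane, lower, at 264 and 116 CPM (-1.18). Timp3, which binds to the matrix, stood at 534 and 1189 CPM (1.15), with 1.08 in the tendon-like clusters. Of 8 genes that answer mechanical load, Tln1, encoding talin, was called lower, at 205 and 97.1 CPM (-1.07), and none higher. Within the clusters 2 of the 10 proteases and inhibitors were higher and 1 lower, and of the 8 load genes 1 was lower.

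Genes of tendon sheath and progenitor cells were higher for 3 of 6 that passed, with none lower and a median of 0.68. S100a4, a calcium-binding protein of fibroblasts, stood at 959.6 and 2645 CPM (1.46), Tppp3, a sheath marker, at 156 and 352 CPM (1.16), and Ly6a, encoding the surface antigen Sca-1, at 68.9 and 281 CPM (2.01). The ratios within the tendon-like clusters were 1.82, 1.99 and 1.84. Ly6a also belongs to the universal fibroblast list, which summed to 410.0 and 672 CPM.

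Few genes of the gp130 pathway passed the filter. Il6st, encoding gp130 itself, stood at 163 and 143 CPM (-0.18) and Jak1 at 163 and 152 CPM (-0.10), and none of the 3 pathway genes that passed was called. The receptor chains Osmr and Lifr had 26.5 and 30.5 CPM and 32.4 and 15.2 CPM, on 36.3 and 9.98 and on 44.4 and 4.97 UMIs. Among 20 genes often listed as STAT3 targets 5 passed the filter, with a median ratio of 0.41 and of -0.42 in the tendon-like clusters. Timp1, an inhibitor of matrix proteases, at 133 and 662 CPM (2.31) and Junb at 201 and 496 CPM (1.30) were called higher and none lower, with ratios of 2.18 and 0.15 in the tendon-like clusters, and for Timp1 3 cells held 83.5% of its mutant UMIs. Socs3, the feedback inhibitor of the pathway, stood at 54.7 and 101 CPM, below the level minimum.

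Immediate-early and heat shock genes, which answer tissue dissociation, were compared beside these. Of 17 that passed 3 were called higher (Ier3, Junb and Btg2) and 1 lower (Hspa1b), with a median of 0.41, whereas in the tendon-like clusters 1 was called higher and 5 lower, with a median of -0.40. Jun, a subunit of AP-1, had ratios of -0.58 and -1.90, and Fosb, another, -0.33 and -1.91. Their summed level was 10486 CPM in control and 11985 CPM in mutant marker-positive cells, and 9822 and 6831 CPM within the clusters.

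The 10 genes with the highest ratios were Penk, Dbp, Clec3b, Myoc, CAAA01147332.1, Cd9, Mustn1, Ltbp2, Sfrp4 and 1810037I17Rik. Penk, encoding the opioid precursor proenkephalin, stood at 14.5 CPM in control and 484 CPM in mutant cells (4.97), but 3 cells held 79.4% of its mutant UMIs and its ratio in the tendon-like clusters was -0.04. Cd9, encoding a tetraspanin, stood at 278 and 1689 CPM (2.60) and 58.9% and 96.1% of the cells held it. Dbp, a clock output factor, stood at 39.3 and 312 CPM (2.96).
These ratios were not particular to the marker-positive cells for all of the genes. In the marked chondrocytes Penk, CAAA01147332.1, Dbp and Cd9 had log2 ratios of 2.92, 2.44, 2.36 and 2.0, and in Prg4 lining cells of 2.80, 3.03, 2.71 and 2.07. Ltbp2 had 0.07 and 0.36 in those cells, and Clec3b, encoding tetranectin, 0.73 and 2.53. Myoc, encoding myocilin, had 87.1% of its mutant UMIs in 3 cells and none in the tendon-like clusters of the mutant library.

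The 10 lowest ratios belonged to red cell, cycling and cartilage genes and to Crispld2. Mki67, the proliferation antigen, Hist1h3c, a replication histone, Car2, a carbonic anhydrase of red cells, and the globin Hbb-bt were at 0 in the 51 mutant cells, and set against 3 UMIs their control levels were at least 32.6-fold, 26.5-fold, 39.6-fold and 23.3-fold higher. These bounds include the globin-positive control cells. Without such cells the log2 ratio of Mki67 was -5.22 in place of -8.23, and both values depend on the pseudocount. In Prg4 lining cells the log2 ratios of Mki67, Car2 and Hbb-bt were -7.81, -6.85 and -7.24. Of the 20 cell cycle genes 12 were at 0 in mutant and none in control marker-positive cells, with summed levels of 129 and 899 CPM, and of 129 and 218 CPM without globin-positive cells. Col2a1, at 604 and 101 CPM (-2.57), turned to 0.45 without globin-positive cells, and 3 of the 4 fibrocartilage genes were called lower, Col2a1, Acan and Col11a2. Crispld2, a secreted protein, stood at 600.0 and 112 CPM (-2.41), in 65.9% and 43.1% of the cells, with -2.87 in the tendon-like clusters, -0.93 in the marked chondrocytes and -2.32 in lining cells.

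**Figure D4:**
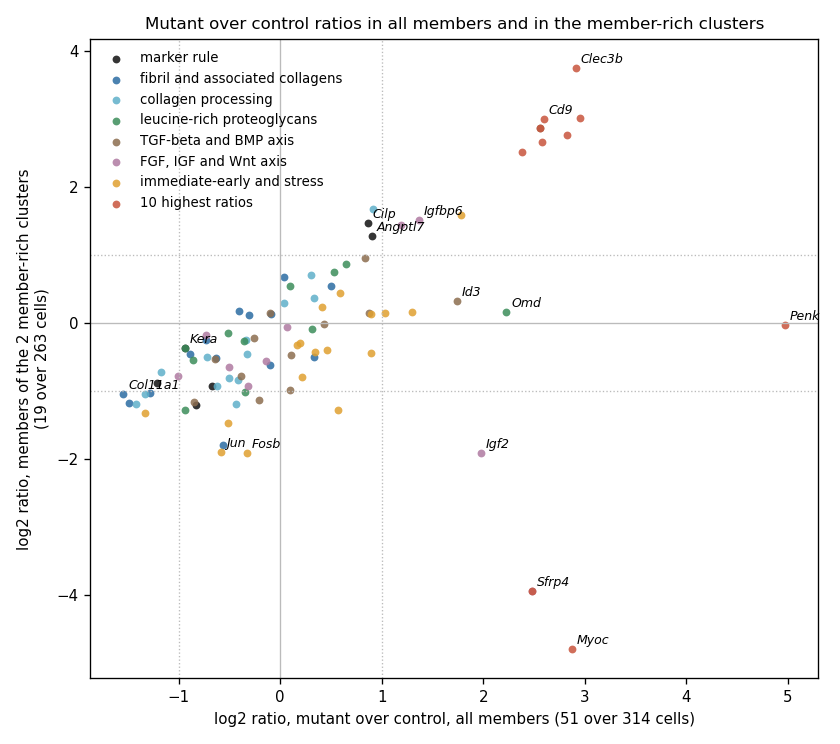
Log2 ratio of mutant over control CPM over all marker-positive cells (x axis, 51 over 314 cells) and within the 2 tendon-like clusters (y axis, 19 over 263 cells), for genes of 7 lists that passed the filter and the 10 highest ratios (colours); dotted lines mark a 2-fold difference. Col11a1 is low on both axes (-1.54 and -1.05). Cilp and Angptl7 are high on both, with most of their mutant UMIs in 3 cells, and Penk, Myoc, Sfrp4 and Igf2 are high over all cells only. Axis labels call marker-positive cells members, and the y values of Myoc and Sfrp4, with no mutant UMI, depend on the pseudocount of 1 CPM.

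The marker-positive cells also differed among themselves. Cells with Tnmd and Kera (165 control, 13 mutant) were set against those with neither (44 and 19) in each library. To meet the rule, cells with neither must hold at least 3 of Angptl7, Thbs4, Cilp and Cpxm2, and cells with both need fewer. The contrast therefore also selects cells by those markers. Of 1454 genes outside the rule with a mean of 100 CPM, 39 (2.68%) were at least 2-fold higher with Tnmd and Kera in both libraries and 46 (3.16%) at least 2-fold lower. Col1a1 stood at 57746 against 16749 CPM in the control and at 40026 against 6402 CPM in the mutant library, log2 ratios of 1.79 and 2.64. Scx stood at 191 against 23.1 CPM and at 313 against 74.9 CPM, and Itgbl1, encoding an integrin beta-like matrix protein, at 639 against 173 CPM and at 618 against 60.1 CPM.
The others of the 10 genes highest with Tnmd and Kera were Acta2 and Tpm1 of the contractile cytoskeleton, the collagen genes Col12a1, Col11a2 and Col1a2, Mfap4, and Clec11a, a secreted growth factor of skeletal stem cells. Their smaller-of-2 log2 ratios lay between 1.76 for Tpm1 and 2.41 for Col11a2.

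Of the 10 genes lowest in this contrast, Prg4 and Htra4 belong to the synovial lining list. Prg4 stood at 15984 CPM in control and 9098 CPM in mutant cells with neither, as compared to 880.0 and 1071 CPM in cells with both, and Htra4, a protease of lining cells, at 305 and 398 CPM against 11.4 and 27.5 CPM. A few cells carried these levels, since among the cells with neither 3 cells held 87.3% and 90.9% of the Prg4 and 60.6% and 73.7% of the Htra4 UMIs. Prg4 was above 0 in 31 of the 44 control and 13 of the 19 mutant cells with neither and in 101 of the 165 and 6 of the 13 with both. Spp1, encoding osteopontin, an acidic matrix protein, stood at 1695 and 4351 CPM against 67.0 and 5.18 CPM, with 52.1% and 94.3% of its UMIs in 3 of the cells with neither. Others of the 10 were Mustn1, Serpine2, Creb5, Cdkn1a, Dpt and Errfi1. Dpt, encoding dermatopontin, a protein that binds decorin, stood at 349 and 376 CPM against 79.4 and 64.5 CPM. In the 13 mutant cells with both genes 3 UMIs are 27.7 CPM, so the Spp1 and Htra4 levels there are below that limit. More than 5% mitochondrial counts were found in 6 of those 13 cells and in 1 of the 19 with neither, and in 12.1% and 6.82% of the control cells, and their part in these ratios was not tested.

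**Figure D5:**
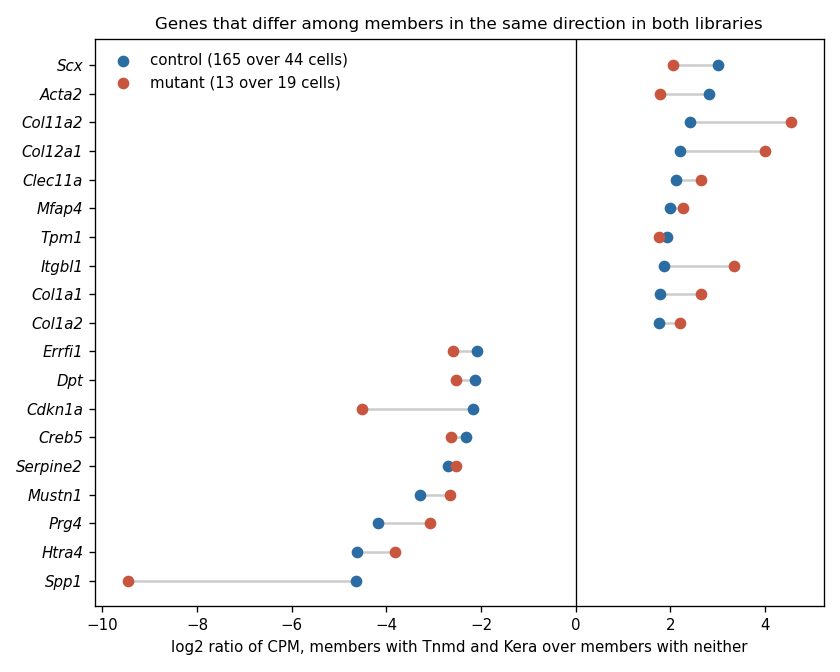
Log2 ratio of CPM in marker-positive cells with Tnmd and Kera over those with neither (x axis) for genes among the 10 highest and the 10 lowest in both libraries (y axis), in control (blue, 165 over 44 cells) and mutant cells (red, 13 over 19 cells); lines join the libraries and members are the marker-positive cells. Scx and the type I collagen genes lie on the Tnmd and Kera side, and Prg4, Htra4 and Spp1 on the other.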

How the data were processed

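Live knee cells were sequenced with 10x 3′ v3.1 chemistry, 1 library per genotype. According to the labels and the study's methods, the authors aligned reads with STAR 2.7.3a to mm10 in Partek Flow, counted UMIs on Gencode M25, called cells and removed ambient RNA. The values deposited by the authors are log2(CPM + 1) per cell over 32245 genes. The deposited total per cell is an estimated count after ambient removal, from which UMIs were recovered as (2 to the power of the value, minus 1) times the total over 1000000, and 72.1% of control and 97.5% of mutant values lay within 0.1 of a whole number. Mitochondrial and ribosomal shares are deposited as a percent, and the number of genes above 0 as a score. The tables are not limited to cells under 5% mitochondrial counts.

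Recovered UMIs of marker-positive cells were added up within a library and expressed as CPM. Log2 ratios used a pseudocount of 1 CPM and are called at 1 or -1, among genes found in at least 10% of the marker-positive cells of 1 library or the other and averaging 100 CPM or more. No test, p-value or SD is given with 1 library per genotype. Shares have exact Clopper-Pearson 95% intervals. A gene at 0 is set against 3 UMIs summed over the group. Library totals were 23576400 and 7452650 estimated UMIs.

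All cells were clustered with scanpy 1.11.5 on 2000 variable genes, 30 principal components and 15 neighbours with Leiden (leidenalg 0.10.2) at resolution 1 and seed 1. Scrublet, at an expected rate of 0.05, marked 74 control and 2 mutant cells, the latter 0.149%, a rate at which the caller may not have worked. Doublets were kept in the main results, 9 control and 0 mutant among the marker-positive cells. The ratio step was tested on simulated data. Alternatives were the number of markers required, marked cells, doublets, mitochondrial and globin limits, thinning, scaling, pseudocount and the filter on low values. Restricting cells to the tendon-like clusters, or to those outside, was added after the data were seen.

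Members, gene lists and comparisons were chosen with earlier results of these data known. Genes named are the 6 markers, Stat3, members of the lists, the 10 highest and 10 lowest ratios of mutant over control, the 20 highest over all other cells outside the rule, the 10 highest and 10 lowest between cells with Tnmd and Kera and cells with neither, and the leading genes of clusters. Some genes that this rule takes in are not reported here. Analyses used Python 3.11.15, numpy 2.4.6, scipy 1.17.1 and pandas 2.3.3.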

Additional observations from a re-analysis of the deposited data

Results flagged for a closer look

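Postn, encoding periostin, a matrix protein of fibroblasts under load, differed in opposite directions in 2 kinds of cells. In marker-positive cells its log2 ratio of mutant over control was -1.13 (531 and 241 CPM), and in Prg4 lining cells 1.82 (81.1 and 290 CPM). With 1 library per genotype the difference was not tested. Values above 0 were found in 24.8% of the control marker-positive cells and 23.5% of the mutant ones, 3 cells held 72.3% of its mutant UMIs, and within the tendon-like clusters the ratio was -0.41.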

How the results depend on the processing

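No paired analysis was possible because each genotype has 1 library and no result comes from a test. Without a detection filter and from a mean of 10 CPM, 701 and 1156 of 8108 genes were at least 2-fold higher and lower, and outside the tendon-like clusters 131 were lower. The Stat3 ratio was -1.32 in cells with 4 of 6 markers, and it changed sign to 0.023 in cells with 2 of 6 markers and 0.11 with marked cells included. The median of the further tendon markers was -1.15 in cells with at most 5% mitochondrial counts. The fibrocartilage median was -0.43 without globin-positive cells, -0.67 in the tendon-like clusters and 0.047 with marked cells included. The share of marker-positive cells was 9.77% (8.95 to 10.6%) of control and 7.69% (6.32 to 9.24%) of mutant cells with 2 of 6 markers, with overlapping intervals. It was 4.41% and 1.34% with 4 of 6 and 4.24% and 1.85% after thinning. In the tendon-like clusters it was 5.36% and 1.42%, and without globin-positive cells 9.33% in the control.

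Ratios of other single genes past the 2-fold call in either setting changed sign as follows, and the cause was not tested. With 4 of 6 markers Adamts1 was at -1.24, Hapln1 at -1.20 and Myoc at -4.99. In Tnmd-positive cells Fn1 was at -1.07, Hapln1 at -2.76 and Myoc at -0.72. Within the tendon-like clusters Igf2 was at -1.92, Nr4a1 at -1.29 and Penk at -0.038, while Myoc at -4.80 and Sfrp4 at -3.95 had no mutant UMI, so that these 2 values depend on the pseudocount. Outside them Fn1 was at -1.13, Hapln1 at -2.84, Thbs1 at 0.38, Tppp3 at -0.62 and Wif1 at 1.79. Col2a1 was at 0.45 without globin-positive cells and 2.24 with marked cells included. Over 6859 genes with 10 CPM in both libraries the median log2 ratio was -0.07, and -0.14 within the tendon-like clusters. The 51 mutant cells put 3 UMIs at 9.18 CPM, and the 19 in the tendon-like clusters at 19.6 CPM, which limits what low genes can show.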
